A study of Ovis aries with 6 samples.

Results

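The sugar transporters measured in sheep skin were 4 genes: SLC2A5, SLC2A3, GLUT-1 and SLC5A1. They were read by 6 of the 15008 probes of a 1-colour Agilent sheep expression array. SLC2A5 was taken at probes A_70_P051036 and A_70_P051037 (NM_001009451), SLC5A1 at probe A_70_P039666 (NM_001009404), and SLC2A3 at every probe carrying its sheep RefSeq mRNA, which were A_70_P051106 and A_70_P051107 (NM_001009770). GLUT-1 was taken at the single probe to which the study's supplementary tables give that name, A_70_P026062, whose array identifier is U89029. A further probe of the same identifier was found for GLUT-1 (A_70_P026061) and for SLC5A1 (A_70_P039667), and both are given beside the chosen probes. For comparison, 476 gene symbols could be put on the array's probes through RefSeq mRNA accessions.

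Skin was compared between Aohan fine wool sheep, a fine wool breed, and small tail Han sheep, a coarse wool breed, with 3 animals and 3 arrays of each. All 6 animals were 12 months old and reared in pens, and each gave about 1 cm2 of full-thickness body side skin in the active wool growth season. A ram and 2 ewes stood for each breed, without a label on the ram. The animals of a breed were the offspring of 1 sire, and the scan sessions were separate for the breeds, so breed, sire family and scan session cannot be told apart.

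Sugars cross cell membranes through carriers of separate families. The SLC2A (GLUT) proteins let hexoses move down their concentration gradient, whereas SLC5A1 (SGLT1) carries glucose into the cell together with sodium, against the glucose gradient, and depends on the sodium pump. SLC2A5 (GLUT5) is the fructose carrier, GLUT-1 (the product of SLC2A1) is the widespread basal glucose carrier, abundant in human keratinocytes and red cells, and SLC2A3 (GLUT-3) is a glucose carrier of high affinity best known from neurons. SLC5A1 is best known from the absorptive epithelium of the intestine and kidney. The growing wool follicle is known to use large amounts of glucose.

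Between the breeds the carriers went in different directions. Signals of the fructose carrier SLC2A5 and of GLUT-1 were lower in Aohan skin, those of the sodium-coupled carrier SLC5A1 were higher, and those of SLC2A3 overlapped between the breeds on these signals. Values are log2 processed intensities relative to the 75th percentile of each array, a change is Aohan minus small tail Han, and a probe passed at a limma p-value, adjusted by the Benjamini-Hochberg method over all tested probes, under 0.05. Of the 6 probes, 1 passed as higher, where 7.57% of all 12480 tested probes did, and 3 passed as lower, where 7.6% did (15.2% in either direction). The values of the breeds did not overlap at 4 of the 6 probes, against 34.2% of all tested probes. The median change over all tested probes was 0.02. Since SLC2A5 and GLUT-1 are named in the study's own lists of probes that differ on these arrays, their count is not independent of that choice. In whole skin, fewer cells that use a carrier and less of its RNA per cell cannot be told apart.

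**Figure D1:**
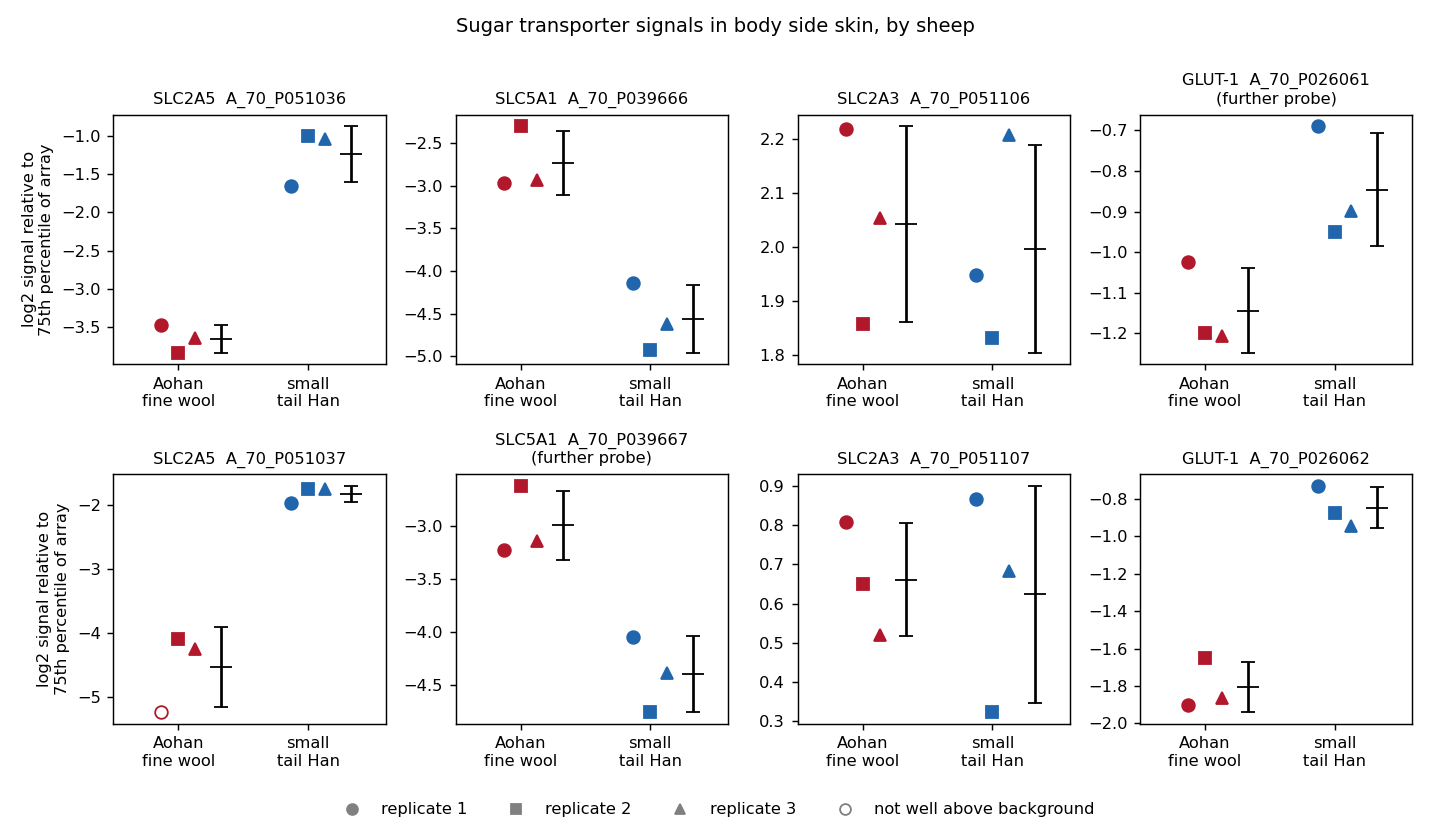
Log2 signal relative to the 75th percentile of the array (y axis, with its own range for each probe) for each of 3 Aohan fine wool sheep (left, red) and 3 small tail Han sheep (right, blue), with the mean and SD of each breed as a bar. Aohan values lie below all small tail Han values at both SLC2A5 and both GLUT-1 probes, above them at both SLC5A1 probes, and overlap them at both SLC2A3 probes.

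Each array held 15208 spots that were not controls, none was saturated, and the arrays correlated with each other at 0.963 to 0.987 (Pearson's r over probes). The 75th percentile of the intensity lay between 1103 and 2048 on Aohan arrays and between 1747 and 2309 on small tail Han arrays. Repeat spots, available for 50 probes with 5 spots each, had a median coefficient of variation of 11.2% to 19.6% on Aohan arrays, highest on Aohan 1, and of 7.77% to 8.91% on small tail Han arrays. The wool follicle keratins KRT25, KRT27 and KRT35, which mark growing follicles, stood far above the 75th percentile of every array. Their mean log2 levels were 7.14 to 8.0 in Aohan sheep and 7.39 to 7.89 in small tail Han sheep. None of the 3, out of 18 genes listed, passed, where 15.2% of all tested probes did.

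SLC2A5, the fructose carrier, had processed intensities at A_70_P051036 of 98.7, 142 and 90.0 in Aohan sheep 1, 2 and 3, against 736, 920 and 853 in small tail Han sheep 1, 2 and 3. Relative to each array's 75th percentile these were -3.48, -3.85 and -3.65 in Aohan sheep and -1.65, -1.0 and -1.04 in small tail Han sheep. The breeds were 1.83 log2 units apart at their nearest values (Aohan 1 and small tail Han 1). The means were -3.66 ± 0.18 in Aohan sheep and -1.23 ± 0.37 in small tail Han sheep (SD, n = 3 each). SLC2A5 was thus 5.40-fold lower in Aohan skin (log2 change -2.43, SE 0.22, 95% interval -2.93 to -1.93, limma adjusted p = 0.000218). Only 143 of the 12480 tested probes (1.15%), this one included, changed by as much in either direction.

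The other SLC2A5 probe, A_70_P051037, gave intensities of 29.2, 120 and 59.7 in Aohan sheep, against 586, 544 and 518 in small tail Han sheep. On the relative log2 scale these were -5.24, -4.09 and -4.24 in Aohan sheep and -1.98, -1.76 and -1.75 in small tail Han sheep, again without overlap. The spot of Aohan 1 was not well above background and stood 1.11-fold over the dimmest spot called well above background on that array. The mean was -4.52 ± 0.62 in Aohan sheep and -1.83 ± 0.13 in small tail Han sheep (SD, n = 3 each), a 6.47-fold lower level in Aohan skin (log2 change -2.69, SE 0.30, 95% interval -3.37 to -2.02, limma adjusted p = 0.000666). Without Aohan 1 the change was -2.34 (limma adjusted p = 0.000158). The changes at both SLC2A5 probes differed by 0.26 on the log2 scale, within the spread between sheep (exact permutation p = 0.9, two-sided), and 236 of 452 identifiers with a pair of tested probes (52.2%) had changes at least as far apart. On signals without a correction for spot position, described below for GLUT-1, the gap was 0.53 (exact permutation p = 0.2). On those signals 123 of the 452 identifiers (27.2%) were at least as far apart. Exact permutation of 3 against 3 cannot give a two-sided p under 0.1, and at both SLC2A5 probes the breed difference itself reached that limit.

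GLUT-1, the basal glucose carrier, had intensities at A_70_P026062 of 295, 652 and 310 in Aohan sheep, against 1394, 1003 and 909 in small tail Han sheep. On the relative scale they were -1.90, -1.65 and -1.87 in Aohan sheep and -0.73, -0.87 and -0.94 in small tail Han sheep. The sheep of each breed lay close together, and the nearest values of the breeds (Aohan 2 and small tail Han 3) were 0.71 log2 units apart. The mean was -1.81 ± 0.14 in Aohan sheep and -0.85 ± 0.11 in small tail Han sheep (SD, n = 3 each). GLUT-1 was 1.94-fold lower in Aohan skin at this probe (log2 change -0.96, SE 0.15, 95% interval -1.30 to -0.61, limma adjusted p = 0.00458). The local background of this spot carried an outlier mark on Aohan 2, and without that value the change was -1.05 (limma adjusted p = 0.00690).

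The further GLUT-1 probe, A_70_P026061, showed a smaller difference. Its intensities were 542, 891 and 489 in Aohan sheep, against 1433, 950 and 938 in small tail Han sheep, or -1.02, -1.20 and -1.21 in Aohan sheep and -0.69, -0.95 and -0.90 in small tail Han sheep on the relative scale. All 3 Aohan values lay below all 3 small tail Han values, by 0.07 log2 units at the nearest. The mean was -1.14 ± 0.10 in Aohan sheep and -0.85 ± 0.14 in small tail Han sheep (SD, n = 3 each), and the probe did not pass (log2 change -0.30, SE 0.15, 95% interval -0.64 to 0.04, limma adjusted p = 0.225, exact permutation p = 0.1). The size of the GLUT-1 difference therefore rests on the probe read. The changes at both probes were 0.66 apart. Of the 452 identifiers with a pair of tested probes, 69 (15.3%) had changes at least as far apart, and the median gap was 0.27.

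The gap between the GLUT-1 probes moved with a step of the image extraction. The extraction software had multiplied each background-subtracted signal by a factor for the position of the spot on the array (a surface correction), on all arrays except small tail Han 2 and 3. At A_70_P026061, near a corner of the array in row 5 and column 4, the factor was 2.31, 1.19 and 1.15 in Aohan sheep 1, 2 and 3, and 1.18 in small tail Han 1. At A_70_P026062, in row 15 and column 54, the factor was 0.887, 0.886 and 0.860 in Aohan sheep and 0.920 in small tail Han 1. On signals taken before this factor, A_70_P026061 read -2.52, -1.48 and -1.55 in Aohan sheep and -1.02, -1.25 and -1.04 in small tail Han sheep, a change of -0.75 (limma adjusted p = 0.124). On the same signals A_70_P026062 changed by -0.79 (limma adjusted p = 0.0386), so that the changes at both probes lay 0.04 apart, and 412 of the 452 identifiers (91.2%) had probes at least as far apart. GLUT-1 was lower in Aohan skin at both probes with either set of signals. Which set is nearer to the RNA levels was not tested.

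**Figure D2:**
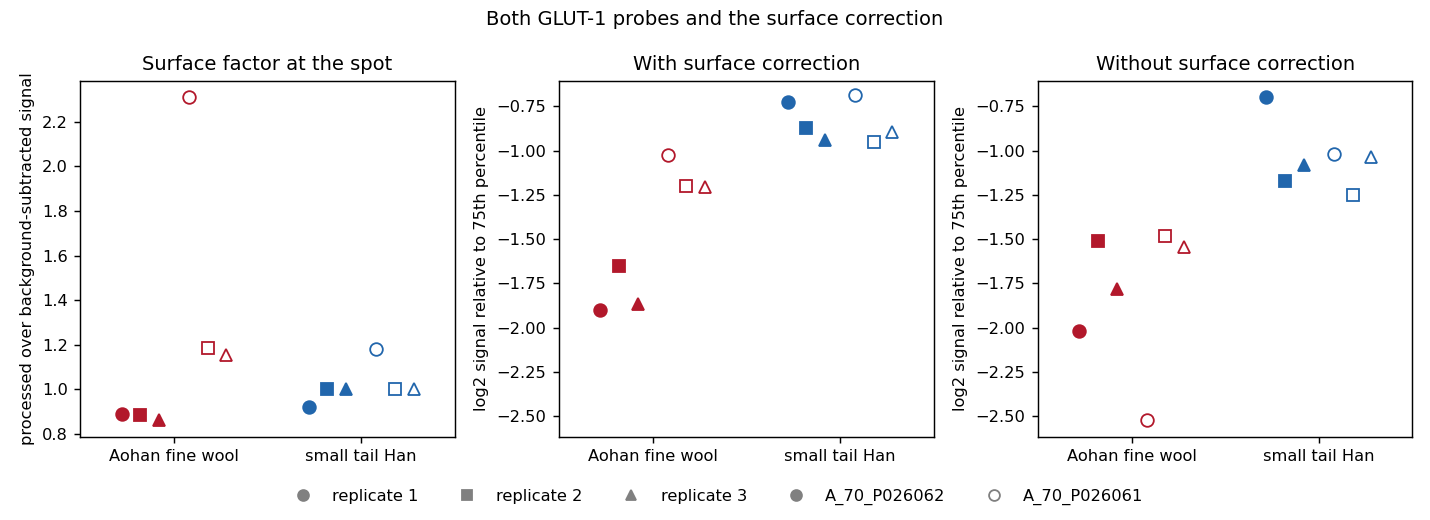
Position factor at each GLUT-1 spot (left panel, a ratio of processed to background-subtracted signal), and log2 signal relative to the 75th percentile with (middle) and without it (right), for 3 Aohan sheep (red) and 3 small tail Han sheep (blue), with filled symbols for A_70_P026062 and open ones for A_70_P026061. The factor of 2.31 on Aohan 1 stands apart, and without it the value of A_70_P026061 on that array is -2.52 in place of -1.02.

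SLC2A3, the glucose carrier of high affinity, was bright in the skin of all 6 sheep. At A_70_P051106 it had intensities of 5138, 7418 and 4692 in Aohan sheep and 8914, 6538 and 8074 in small tail Han sheep, which were 2.22, 1.86 and 2.05 in Aohan sheep and 1.95, 1.83 and 2.21 in small tail Han sheep on the relative scale. The values of the breeds interleaved. The mean was 2.04 ± 0.18 in Aohan sheep and 2.0 ± 0.19 in small tail Han sheep (SD, n = 3 each), a log2 change of 0.05 (SE 0.17, 95% interval -0.33 to 0.43, limma adjusted p = 0.886, exact permutation p = 0.7).

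The other SLC2A3 probe, A_70_P051107, read 0.81, 0.65 and 0.52 in Aohan sheep and 0.87, 0.32 and 0.68 in small tail Han sheep. Both the highest and the lowest value came from small tail Han sheep. The mean was 0.66 ± 0.14 in Aohan sheep and 0.62 ± 0.28 in small tail Han sheep (SD, n = 3 each), and the log2 change was 0.04 (SE 0.18, 95% interval -0.36 to 0.44, limma adjusted p = 0.919, exact permutation p = 1). These intervals leave room for a difference of about 0.4 log2 units either way, and the sign of the SLC2A3 change depended on the scaling. On signals without the position factor A_70_P051106 read 1.39, 1.53 and 1.52 in Aohan sheep and 1.59, 1.53 and 2.07 in small tail Han sheep, and every Aohan value lay below every small tail Han value, by under 0.01 at the nearest. The change was then -0.25 at A_70_P051106 and -0.32 at A_70_P051107, and neither passed (limma adjusted p = 0.379 and 0.453).

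SLC5A1, the sodium-coupled glucose carrier, ran the other way. At A_70_P039666 its intensities were 141, 417 and 148 in Aohan sheep and 131, 60.4 and 70.7 in small tail Han sheep. Once each was set against the 75th percentile of its array the values were -2.97, -2.30 and -2.93 in Aohan sheep and -4.14, -4.93 and -4.63 in small tail Han sheep. Aohan 2 was the highest sheep and small tail Han 1 the highest of its breed, and the nearest values of the breeds (Aohan 1 and small tail Han 1) were 1.18 log2 units apart. The mean was -2.73 ± 0.38 in Aohan sheep and -4.57 ± 0.40 in small tail Han sheep (SD, n = 3 each). SLC5A1 was 3.56-fold higher in Aohan skin (log2 change 1.83, SE 0.28, 95% interval 1.20 to 2.47, limma adjusted p = 0.00379), and 306 of the tested probes (2.45%), this one included, changed by at least as much in either direction.

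The further SLC5A1 probe, A_70_P039667, kept the order of the sheep. It read -3.22, -2.61 and -3.14 in Aohan sheep and -4.05, -4.76 and -4.39 in small tail Han sheep. The mean was -2.99 ± 0.33 in Aohan sheep and -4.40 ± 0.36 in small tail Han sheep (SD, n = 3 each), a 2.66-fold higher level in Aohan skin (log2 change 1.41, SE 0.26, 95% interval 0.81 to 2.01, limma adjusted p = 0.00941). The change was 0.42 larger at A_70_P039666 than at A_70_P039667, and the within-array differences of the probes did not overlap between the breeds (exact permutation p = 0.1). A gap of this size was common: 144 of the 452 identifiers with a pair of tested probes (31.9%) had changes at least as far apart.

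SLC5A1 was a dim signal, above all in small tail Han sheep. The spot of A_70_P039666 stood 5.38-fold, 28.0-fold and 6.72-fold over the dimmest spot called well above background in Aohan sheep 1, 2 and 3, and 5.65-fold, 1.1-fold and 2.42-fold over it in small tail Han sheep 1, 2 and 3. With normexp background correction of the raw spot medians, which also left out the position factor, added an offset of 50 and was followed by quantile scaling, the SLC5A1 change was 0.93 at A_70_P039666 (limma adjusted p = 0.00990) and 0.66 at A_70_P039667 (limma adjusted p = 0.0138). Quantile scaling alone gave 1.79 at A_70_P039666, and leaving out the position factor alone gave 1.75, and normexp was not run apart from these steps. With the test that the study's methods name, which takes the spread from each probe alone, adjusted by the Benjamini-Hochberg method, A_70_P039666 did not pass on any of 3 sets of values (adjusted p = 0.0593, 0.0527 and 0.0529), nor did A_70_P039667.

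**Figure D3:**
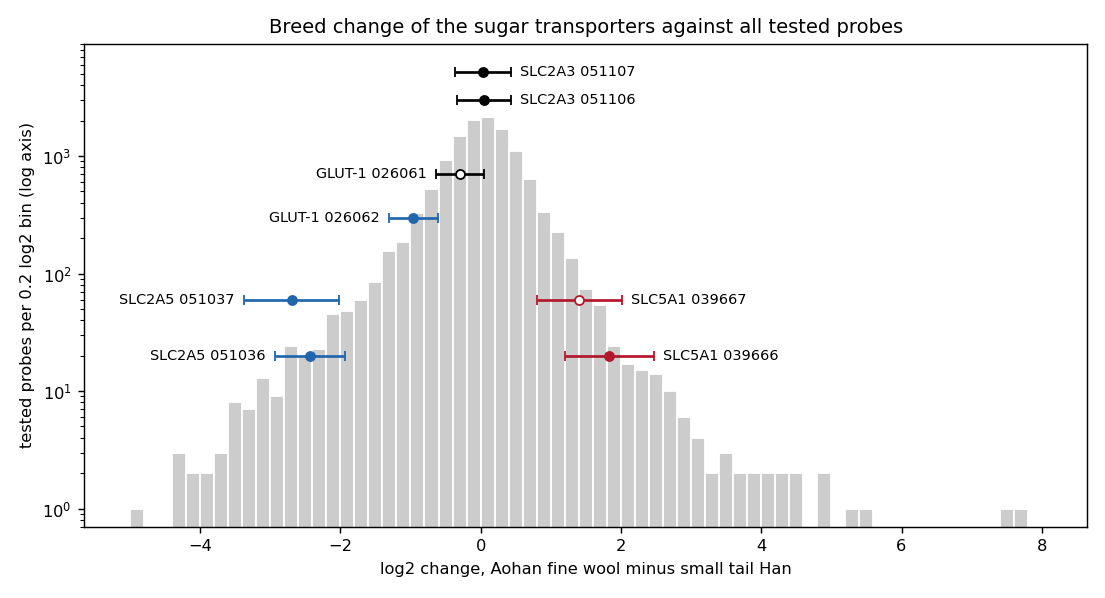
Log2 change (x axis, Aohan fine wool minus small tail Han, with 95% intervals) of the sugar transporter probes, drawn over a histogram of the changes of all 12480 tested probes (grey, log axis, the median at 0.02). Probes that passed are blue where lower and red where higher in Aohan skin, those that did not are black, open circles are the further probes, and the height of a point has no meaning.

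Since a ratio of probes on the same array does not depend on the scaling between arrays, the changes of the 4 genes were also set against each other within arrays, with the brightest chosen probe for each gene. SLC2A5 over SLC5A1 moved most, with a mean log2 ratio of -0.93 ± 0.55 in Aohan sheep and 3.34 ± 0.75 in small tail Han sheep (SD, n = 3 each), a change of -4.27. SLC5A1 over GLUT-1 was -0.93 ± 0.24 in Aohan sheep and -3.72 ± 0.32 in small tail Han sheep, a change of 2.79. These ratios carry the brightness of each probe, so only their difference between the breeds can be read.

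Both carriers that were lower in Aohan skin were also lower relative to SLC2A3, and by unequal amounts. SLC2A5 over SLC2A3 changed by -2.48, with -5.70 in all 3 Aohan sheep (SD 0.0013) and -3.22 ± 0.38 in small tail Han sheep. SLC2A3 over GLUT-1 was 3.85 ± 0.31 in Aohan sheep and 2.84 ± 0.27 in small tail Han sheep, a change of 1.00. SLC2A5 over GLUT-1 changed by -1.47, and SLC5A1 over SLC2A3 by 1.79. In all 6 pairs, with GLUT-1 at A_70_P026062, the ratios of the breeds did not overlap. The pairs reuse the same probe of each gene, so they are not 6 separate results. Singly, 34.2% of all tested probes did not overlap, and the share among ratios of other probes was not computed. Each of the 6 pairs had the smallest two-sided p the design allows (exact permutation p = 0.1, and 0.1 after adjustment over the 6 pairs), so none could pass 0.05. The further GLUT-1 probe, A_70_P026061, was brighter in Aohan sheep, and its own change was -0.30 against -0.96 at A_70_P026062. The size of the GLUT-1 ratios therefore rests on the probe read, and ratios with A_70_P026061 were not tested. The separation of SLC2A3 over GLUT-1 did not hold on signals without the position factor, where its change was 0.53 and the breeds overlapped (exact permutation p = 0.2). With normexp its change was 0.58, that of SLC5A1 over GLUT-1 was 1.67 and that of SLC5A1 over SLC2A3 was 1.09, each without overlap.

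**Figure D4:**
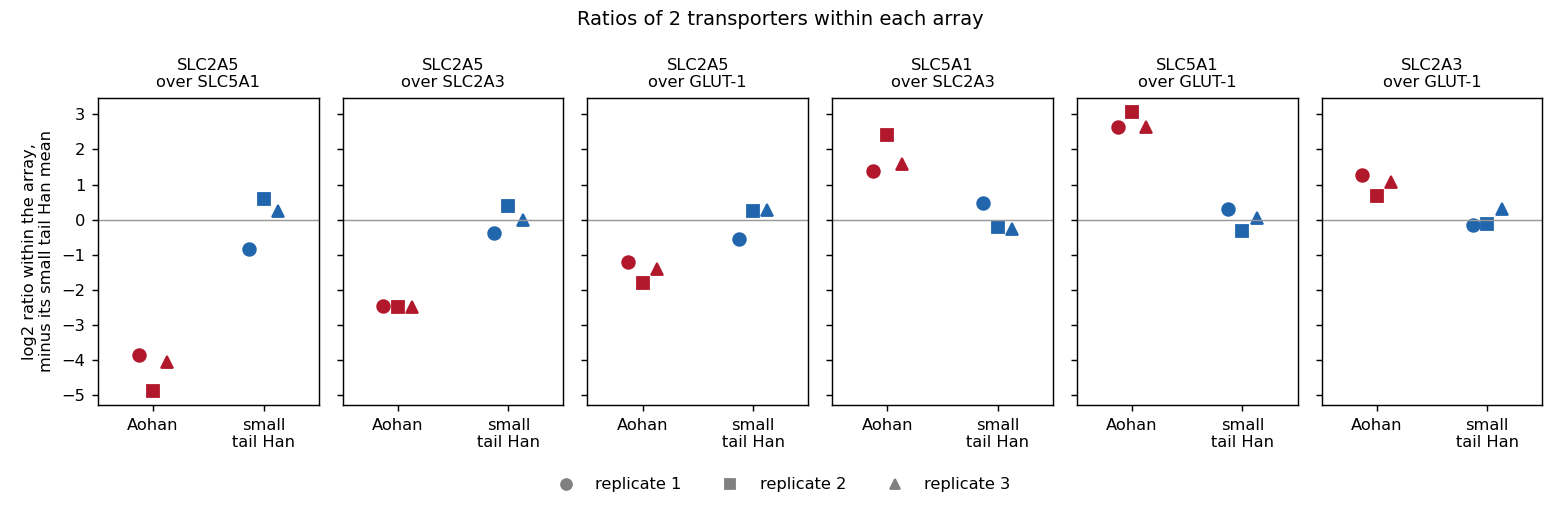
Log2 ratio of a pair of transporters within each array (y axis, less the small tail Han mean of that ratio) for 3 Aohan sheep (left, red) and 3 small tail Han sheep (right, blue), with symbols for the replicate. The breeds are apart in all 6 panels, most in SLC2A5 over SLC5A1 (change -4.27) and least in SLC2A3 over GLUT-1 (change 1.00). The panels share probes and are not separate results. GLUT-1 is read at A_70_P026062 only.

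Other genes of sugar handling could be followed only in part, since few of them carry a RefSeq name on this array. None of 18 other hexose transporters and none of 32 genes of glycolysis and lactate transport could be named on it. Where a gene had several tested probes, the brightest was taken.

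Of 21 genes of the pentose phosphate path, glycogen and nucleotide sugars, 6 were tested and 1 passed, as lower, where 7.6% of all tested probes passed as lower and 15.2% in either direction. A count of 1 does not set these genes apart from that share. The gene was PYGB, the brain form of glycogen phosphorylase, which releases glucose units from glycogen. PYGB averaged -1.80 ± 0.16 in Aohan sheep and -0.92 ± 0.02 in small tail Han sheep (SD, n = 3 each), a log2 change of -0.87 (SE 0.15, limma adjusted p = 0.00659), and its other probe changed by -0.85 (limma adjusted p = 0.0135). The muscle phosphorylase PYGM changed by -0.35 (limma adjusted p = 0.270), LALBA, the alpha-lactalbumin of lactose synthesis, by -0.34 (0.516) and PGD, the second dehydrogenase of the pentose phosphate path, by -0.17 (0.739), with the same adjustment. The other probes of LALBA and PGD changed the other way, by 0.28 (0.568) and 0.10 (0.85), limma adjusted p in parentheses. The phosphorylase PYGL changed by -0.07 (0.898) and at its other probe by -0.50 (0.0517). The median over the 6 genes at their brightest probes was -0.25, against 0.02 for all tested probes.

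SLC5A1 works on the sodium gradient, which the sodium pump builds. ATP1B1, a subunit of the pump, averaged 4.59 ± 0.21 in Aohan sheep and 4.41 ± 0.03 in small tail Han sheep (SD, n = 3 each), and did not pass (log2 change 0.18, limma adjusted p = 0.548).

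None of 6 tested genes, out of 25 listed, of the insulin, IGF and AMPK control of glucose uptake passed at its brightest probe. Of all tested probes 15.2% passed in either direction. The median change of the 6 genes was 0.26. IGF2, a fetal growth factor, changed by 0.68 at that probe (limma adjusted p = 0.107), whereas its other probe passed with a change of 1.12 (limma adjusted p = 0.00871). The growth hormone receptor GHR changed by 0.46 (0.552), the AMPK subunit PRKAA2 by 0.38 (0.297) and the kinase AKT1 by 0.13 (0.732). The other probe of PRKAA2 changed the other way, by -0.23 (limma adjusted p = 0.834). Of 14 genes that answer to low oxygen, 3 were tested and none passed, with changes of 0.63 for the vasoconstrictor EDN1 (0.0950) and 0.22 for the red cell hormone EPO (0.527), limma adjusted p in parentheses. The median of the 3 was 0.22. With so few genes tested, the lack of a call sets neither list apart from the 15.2% of all tested probes.

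Markers of cells that a skin sample holds were set beside the transporters. Of 5 tested leukocyte markers, out of 12 listed, 3 passed as higher in Aohan skin, where 7.57% of all tested probes did. None passed as lower. The 3 were ITGB2 (0.95), CD3E (1.11) and CD3D (0.92). The other probes of ITGB2 (0.70) and CD3E (1.05) also passed, whereas that of CD3D did not (0.73, limma adjusted p = 0.088). CD14 did not pass, and its other probe changed by -0.31 (limma adjusted p = 0.42). The mean log2 level of the 5 ran from -0.36 to -0.08 in Aohan sheep and from -1.03 to -0.80 in small tail Han sheep. This is the direction of SLC5A1. The red cell gene HBB ran from -2.38 to -0.92 in Aohan sheep and from -1.25 to -0.55 in small tail Han sheep, with a change of -0.83 that did not pass (limma adjusted p = 0.171), and red cells are a known site of GLUT-1 in humans. Of 5 tested sebaceous gland and adipocyte markers, out of 11 listed, 1 passed, near the 15.2% of all tested probes that did. This was DGAT1, which makes triglyceride, with a change of -0.65 (limma adjusted p = 0.0159), and its other probe did not pass (-0.59, limma adjusted p = 0.0831). ACACA, of fatty acid synthesis, changed by 0.45 (limma adjusted p = 0.311), and the median of the 5 was -0.16. The part of these cells in the transporter differences was not tested.

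Markers of the other cell types gave no call at the brightest probe, where 15.2% of all tested probes passed. So few were tested that this does not show these cell types to be equal between the breeds. The keratinocyte gene SFN, the only 1 tested of 10 listed, ran from 7.41 to 8.20 in Aohan sheep and from 7.62 to 7.95 in small tail Han sheep. Neither of 2 fibroblast (7 listed), 2 endothelial (8 listed) or 2 muscle markers (14 listed) passed, nor any of 4 secretory epithelium markers (7 listed). At their other probes, the muscle gene TNNC2 was lower (log2 change -1.37, limma adjusted p = 0.0219) and the milk protein gene CSN2 higher (4.86, limma adjusted p = 0.00177) in Aohan skin. The lone marker of intestinal or kidney epithelium that could be tested, SLC34A1, ran from -5.65 to -5.24 in Aohan sheep and from -5.83 to -5.50 in small tail Han sheep.

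The named genes whose profile over the 6 arrays was most like that of each transporter were listed from 363 genes well above background on all arrays. For SLC2A5 they were OXT (oxytocin, Pearson's r = 0.996), CYP1A1 (a cytochrome P450 of xenobiotic breakdown, 0.988) and CXCL1 (a chemokine, 0.984), and 32 genes had r over 0.9. For SLC5A1 they were PSMB8 (an immunoproteasome subunit, 0.998), YEATS4 (a chromatin reader, 0.993) and LTF (lactoferrin, 0.992), with 28 genes over 0.9. For GLUT-1 they were RHOBTB2 (0.998), GKN1 (gastrokine, best known from the stomach, 0.995) and PYGM (0.987), with 14 genes over 0.9. SLC2A3, which did not separate the breeds, had 2 genes over 0.9, STAT5A (a signal transducer, 0.933) and CA11 (a carbonic anhydrase-related protein, 0.927), followed by CRHBP (which binds corticotropin-releasing hormone, 0.883). The 6 points share the breed difference: of the 9 genes listed for SLC2A5, SLC5A1 and GLUT-1, each but PYGM also passed between the breeds, so these correlations describe the profiles and were not tested.

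Across 6 ways of making the values, the order of the 4 genes by their change was the same: SLC2A5 had the lowest change, then GLUT-1, SLC2A3 and SLC5A1. The largest moves from the values given above were with normexp, to 0.93 for SLC5A1 A_70_P039666 and to -1.87 for SLC2A5 A_70_P051037.

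**Figure D5:**
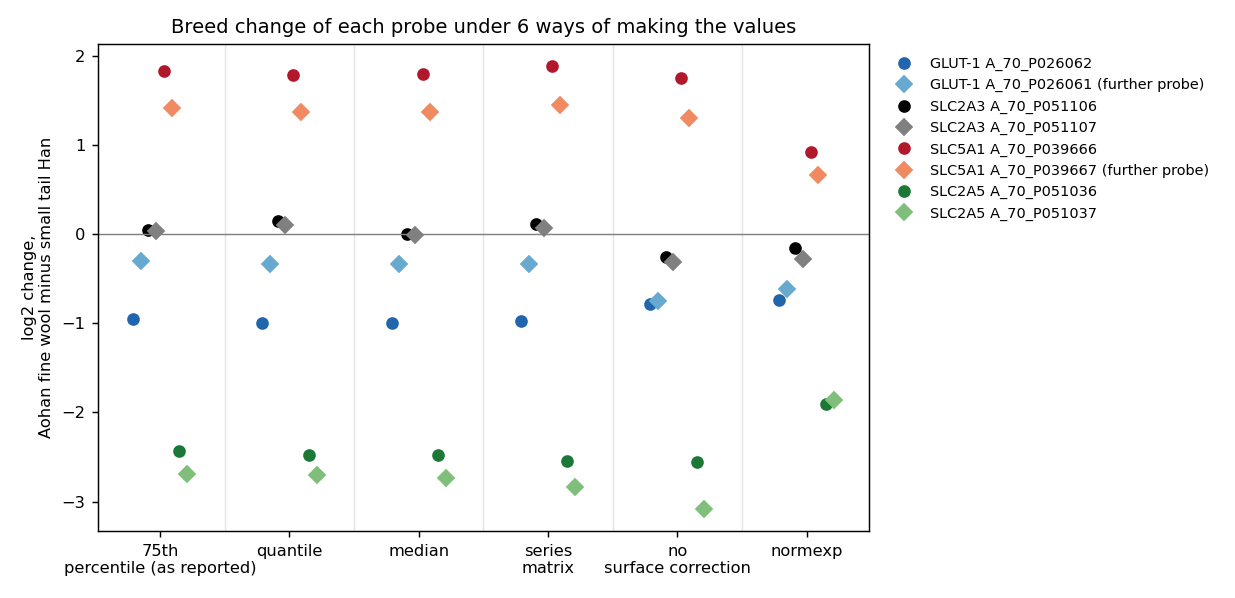
Log2 change (y axis, Aohan fine wool minus small tail Han) of each sugar transporter probe under 6 ways of making the values, from left to right. SLC2A5 stays lowest (-3.09 to -1.87) and SLC5A1 highest (0.66 to 1.88) throughout, SLC2A3 crosses 0, and the GLUT-1 probes lie apart except without the surface correction and with normexp.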

How the data were processed

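Per the file headers, the authors used version 10.5.1.1 of Agilent Feature Extraction, and they deposited Cy3 intensities per spot, background-subtracted and, except on small tail Han 2 and 3, multiplied by a surface factor, with no normalization between arrays. The deposited series matrix holds log2 values with a median of 8.31 in all 6 columns. Its normalization method is not given in the sources used here. Spots with an outlier mark were dropped, which touched 120 probes and left 95 without a value on some array. The spots of a probe were averaged, and log2 intensity was taken relative to the 75th percentile over non-control probes. Tested were probes well above background on 3 or more of the 6 arrays, given 2 or more values in each breed, with limma 3.58.1 in R 4.3.3 (empirical Bayes with intensity trend, two-sided), tested first on simulated data. All 6 arrays entered the fit, with no covariate. Within-array ratios were compared by exact permutation with SciPy 1.17.1. The number of arrays limits the precision, and p-values measure the spread between animals of 1 sire per breed.

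Names came from RefSeq mRNA accessions found in assembly ARS-UI_Ramb_v3.0 for 734 of 758 probes. Named were all probes of the 4 genes, of each list up to 4 tested genes of smallest p, and the 3 genes most like each transporter. The results of some genes that this rule picks are not reported here. Markers that passed, and CD14 and PYGL, were named after their values were seen. Members and lists were chosen with earlier results of these data known. The alternatives were quantile and median scaling, normexp (offset 50, then quantile scaling, on pixel medians), the series matrix values, other filters, a block on the replicate number, the methods' t-test, a fit without the intensity trend, and leaving out each array. Signals without the surface factor, and dropping spots with a marked background, were added after seeing the data. Proteome files were not used here.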

Additional observations from a re-analysis of the deposited data

How the results depend on the processing

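The directions of SLC2A5, SLC5A1 and GLUT-1 held under every alternative run, and their calls under all but the methods' t-test for SLC5A1. GLUT-1 A_70_P026061 passed under none of them. With that t-test, adjusted by the Benjamini-Hochberg method, the SLC5A1 changes of 1.83 on scaled signals, 1.79 on quantile values and 1.88 on series matrix values had adjusted p of 0.0593, 0.0527 and 0.0529, and 712, 865 and 864 of all tested probes passed, against 1893 with limma. With normexp, SLC2A5 changed by -1.91 at A_70_P051036 and by -1.87 at A_70_P051037. SLC2A5 A_70_P051037 has no value where all 6 arrays had to be well above background. SLC2A3 turned its sign, at A_70_P051106 to -0.16 with normexp and -0.25 without the surface factor (limma adjusted p between 0.379 and 0.991 over the alternatives), and at A_70_P051107 to -0.0060 with median scaling, -0.28 with normexp and -0.32 without the surface factor. Leaving out 1 array at a time gave -0.041 to 0.15 and -0.11 to 0.16 at these probes. The gap between the changes at both SLC2A5 probes was -0.043 with normexp and 0.53 without the surface factor. With an array left out it was -0.18 to 0.57 (-0.18 without Aohan 1), and that between both SLC2A3 probes -0.13 to 0.10. The causes were not tested.

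The replicate number as a block left 1234 of all probes (565 higher, 669 lower), and changed no call of the transporters. The numbers did not pair the sheep: deviations from the breed means correlated at -0.26, -0.43 and 0.16 for sheep 1, 2 and 3. Leaving out 1 array gave 767 to 2250 probes, with 1087 without Aohan 3, 767 without small tail Han 2 and 941 without small tail Han 3, while SLC2A5 (-2.64 to -2.32 and -2.91 to -2.34), SLC5A1 (1.62 to 2.05) and GLUT-1 (-1.04 to -0.90) passed each time. With 1 array left out, exact tests of the within-array ratios cannot go under 0.2. Scan session could not be a block, since each held 1 breed.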
